A study of Mus musculus with 6 samples.

Results

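The Wnt pathway was followed in the tailbud of E10.5 mouse embryos through 10 genes: the ligands Wnt3a, Wnt5a and Wnt5b, and the canonical targets Axin2, Lef1, Sp5, Sp8, Nkd1, Dkk1 and Notum. They were taken by symbol from a count table of 54134 genes, in which each of the 10 had 1 row. The table held 6 libraries, each from the tailbud of 1 C57BL/6 embryo. 4 libraries came from wildtype embryos, which were injected as zygotes but carried no transgene, and 2 from Cdx2P:Nr6a1 embryos, which expressed an Nr6a1 coding sequence from Cdx2 regulatory elements. Nr6a1 is an orphan nuclear receptor that is normally cleared from the tailbud as the trunk gives way to the tail, and the transgene kept it on. The Cdx2P:Nr6a1 embryos were transient transgenics, so each was a separate integration and no line stands behind them. The tissue behind the last formed somite was taken, a mixture of progenitors, presomitic mesoderm, neural plate, hindgut and ectoderm, and in such bulk tissue fewer cells of a type and less RNA per cell cannot be told apart.

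Wnt proteins are lipid-modified ligands that bind Frizzled receptors and the co-receptors Lrp5 and Lrp6, which frees β-catenin from a destruction complex so that it can enter the nucleus and act with Tcf/Lef factors on target genes. In the tailbud, Wnt3a keeps neuromesodermal progenitors in place and pushes their progeny towards mesoderm, whereas Wnt5a acts largely outside the β-catenin branch, in cell movement and axis elongation. Several targets are themselves brakes on the pathway, and some of them, Axin2 first, switch on and off with the segmentation clock of the presomitic mesoderm.

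The smallest library held 44073460 counts and the largest 67183802, and the lowest count of any of the 10 genes in any library was 624, for Notum. Nr6a1 checked the labels: it stood at 3.91, 5.18, 5.53 and 6.89 CPM (counts scaled to a common library total, here the column sum) in wildtype and at 23.4 and 33.8 CPM in Cdx2P:Nr6a1 libraries, where the counts cannot separate the transgene from the endogenous gene. The tissue label fitted the markers, since the summed level of 6 tailbud progenitor genes, T and Cdx2 among them, was 1769 to 2034 CPM in wildtype and 1876 to 2270 CPM in Cdx2P:Nr6a1 libraries. Wildtype replicate 3 and Cdx2P:Nr6a1 replicate 2 carried Y-linked transcripts and the other libraries Xist, so both sexes were present in both groups.

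Across the 10 genes, Notum and Sp5 fell in Cdx2P:Nr6a1 tailbuds and the others did not pass the test. Genes were compared by edgeR quasi-likelihood, and called at a Benjamini-Hochberg adjusted p under 0.05 over all 12733 genes that passed a filter on low counts. All 10 genes passed that filter. 2 of 10 were called, against 1.59% of all genes tested. Both were lower, a direction called in 0.809% of all genes, and 0 of the 10 were called higher, against 0.785%. The median log2 fold change of the 10 genes was -0.12, with 9 lower and 1 higher, and the median of all genes tested was -0.00071. In 3 of the 10, Sp5, Nkd1 and Notum, both Cdx2P:Nr6a1 libraries lay below every wildtype library, as they did in 8.48% of all genes, and in 1, Wnt5b, both lay above, as in 10.1% of all genes.

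**Figure D1:**
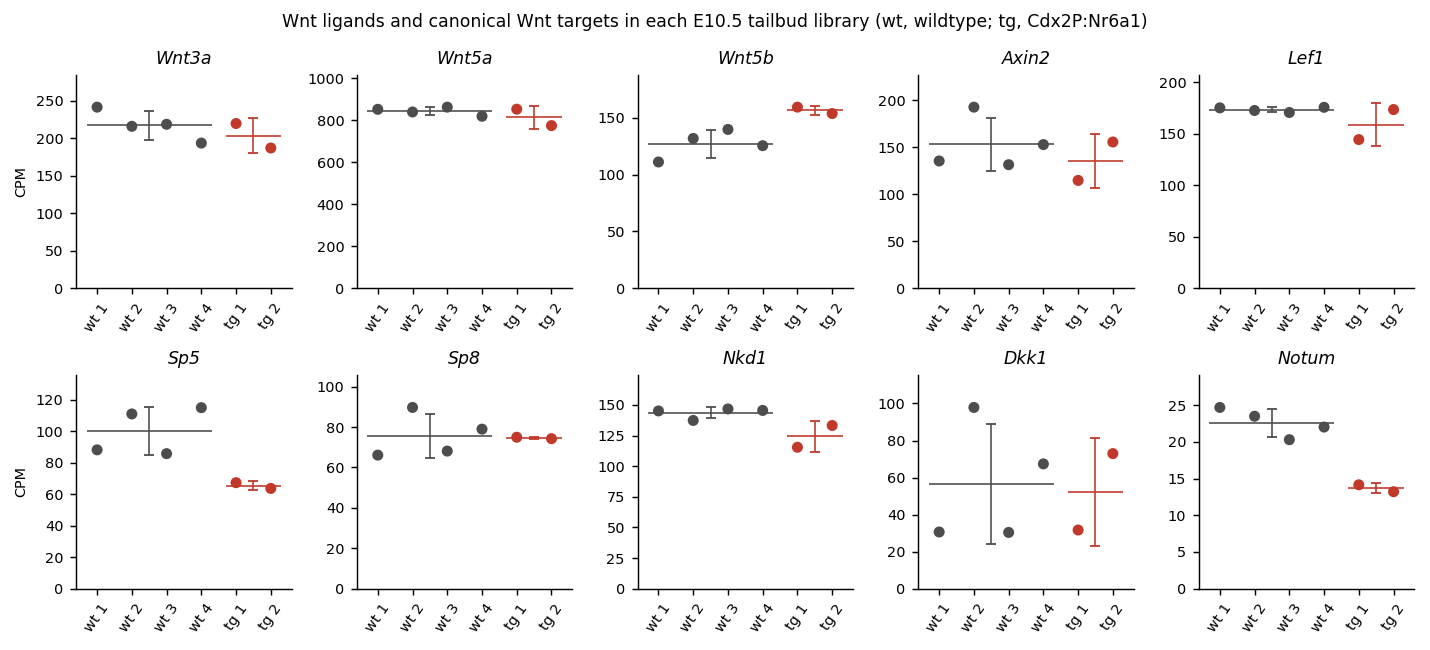
CPM (from column totals, axes from 0) of each of the 10 genes in the 4 wildtype (wt, grey) and 2 Cdx2P:Nr6a1 (tg, red) libraries, with 1 point per library, the group mean as a horizontal line and its SD as a bar. Notum, Sp5 and Nkd1 of the tg libraries lie below all wt points and Wnt5b above them, while Dkk1 spreads from 30.3 to 97.9 CPM among wt libraries alone.

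The promoters of 2 targets are shown because Sp5 was called and Dkk1 varied most, and that of Axin2 because it is the textbook target. Sequences are from RefSeq on GRCm38.p6 and run from 250 bases before to 50 bases after the annotated start, on the strand of the gene. They were searched on both strands for CTTTGAA or CTTTGAT, forms of the Tcf/Lef recognition motif, and for TCAAGGTCA, the extended half-site that Nr6a1 is known to bind. Matches are in capitals.
Sp5, plus strand, chr2:70474673-70474972: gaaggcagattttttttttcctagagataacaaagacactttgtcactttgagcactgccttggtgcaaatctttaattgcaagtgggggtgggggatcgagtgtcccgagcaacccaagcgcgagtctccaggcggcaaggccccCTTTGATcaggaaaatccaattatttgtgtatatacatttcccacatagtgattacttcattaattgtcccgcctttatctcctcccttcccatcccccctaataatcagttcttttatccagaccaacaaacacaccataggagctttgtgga
Dkk1, minus strand, chr19:30549447-30549746: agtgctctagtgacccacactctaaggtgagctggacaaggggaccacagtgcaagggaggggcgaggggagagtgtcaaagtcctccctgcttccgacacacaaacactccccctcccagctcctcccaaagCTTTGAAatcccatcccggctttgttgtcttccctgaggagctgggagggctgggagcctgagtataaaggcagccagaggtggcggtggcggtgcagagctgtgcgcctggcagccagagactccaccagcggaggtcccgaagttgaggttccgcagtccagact
Axin2, plus strand, chr11:108920099-108920398: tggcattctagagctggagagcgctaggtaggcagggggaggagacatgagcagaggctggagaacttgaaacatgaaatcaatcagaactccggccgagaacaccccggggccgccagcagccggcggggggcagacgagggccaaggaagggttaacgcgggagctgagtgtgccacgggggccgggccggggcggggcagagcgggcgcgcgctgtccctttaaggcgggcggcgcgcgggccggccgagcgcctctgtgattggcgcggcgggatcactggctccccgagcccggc

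The Tcf/Lef motif began 104 bases before the Sp5 start and 117 bases before the Dkk1 start, and no match lay in the Axin2 window. In the promoter table used here, entries were matched for 8 of the 10 genes, with 15 promoters in all. The promoters of Wnt5a and Notum were not analysed here. 4 of the 15 promoters held the motif, the others being 1 start each of Sp8 and Wnt5b, and it occurred in 8.65% of 32851 mouse promoters. TCAAGGTCA occurred in 0 of the 15 and in 0.423% of all promoters. Such a match describes letters in a window and says nothing of binding.

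Among the ligands none passed the test, and Wnt5b was higher in both Cdx2P:Nr6a1 libraries than in any wildtype library. Wnt3a (chr11:59248033-59290752), the canonical ligand of the tailbud, stood at 241.8, 216.2, 218.9 and 193.8 CPM in wildtype and at 219.9 and 187.2 CPM in Cdx2P:Nr6a1. Wnt5a (chr14:28504750-28527448) stood at 852.0, 839.3, 862.3 and 819.1 CPM in wildtype and at 852.5 and 774.4 CPM in Cdx2P:Nr6a1. For both, Cdx2P:Nr6a1 replicate 1 lay within the wildtype values and replicate 2 below them, in Wnt5a by more than the whole wildtype range. The log2 fold change was -0.10 ± 0.090 (SE) for Wnt3a, with a 95% interval from -0.31 to 0.10, and -0.06 ± 0.050 for Wnt5a, with an interval from -0.17 to 0.06 (edgeR, adjusted p = 0.835 for each).

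Wnt5b (chr6:119432531-119544347), a close relative of Wnt5a, stood at 111.1, 131.8, 139.7 and 125.4 CPM in wildtype and at 159.3 and 153.7 CPM in Cdx2P:Nr6a1. The groups did not overlap. Its log2 fold change was 0.30 ± 0.078 (edgeR, unadjusted p = 0.00413, adjusted p = 0.128). It was called by the edgeR likelihood ratio test (adjusted p = 0.0262), which called 3.15% of all genes, and its adjusted p ran from 6.39e-05 to 0.524 over 16 other ways of filtering, scaling, testing or leaving out a library, 4 of which called it.

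Compared per length, as CPM per kilobase of exon, Wnt5a and Wnt3a were the most abundant of the 10 transcripts. Wnt5a stood at 107.8 ± 2.38 (SD, n = 4) in wildtype, Wnt3a at 78.8 ± 7.10 and Wnt5b at 47.9 ± 4.56, with no overlap between neighbours over the wildtype libraries. Sp5 followed at 47.6 ± 7.21 and overlapped Wnt5b. Below Sp5 and apart from it came Nkd1 at 31.5 ± 0.941, Axin2 at 27.8 ± 5.08, Dkk1 at 23.3 ± 13.4, Lef1 at 19.7 ± 0.265 and Sp8 at 16.6 ± 2.39, each overlapping the next. Notum was lowest over its full exon length, at 9.40 ± 0.789, and overlapped none. Over the 1490 exon bases that it shares with no other gene it stood at 15.2 ± 1.27 in wildtype, which overlapped Sp8. The order was the same in Cdx2P:Nr6a1 libraries, but there Wnt5b at 57.9 and 60.0 and Sp5 at 30.3 and 32.0 no longer overlapped.

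The 3 ligands made up 81.5% to 85.4% of all Wnt ligand transcripts per length, over 19 ligands. The share of Wnt5b was 14.4%, 18.0%, 18.3% and 17.4% in wildtype and 19.7% and 21.6% in Cdx2P:Nr6a1, a difference of 3.61 percentage points (two-sided exact permutation test, p = 0.0667). That of Wnt5a was 37.5%, 38.9%, 38.2% and 38.5% against 35.7% and 36.9%, a difference of -1.99 points (exact permutation test, p = 0.0667). Wnt3a took 28.0% ± 1.81 (SD, n = 4) against 25.7% ± 0.590 (SD, n = 2), with overlap (exact permutation test, p = 0.267). With 15 arrangements of 2 against 4 libraries, 0.0667 is the smallest p this design can give, and the 3 shares are bound together because they are parts of 1 sum.

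**Figure D2:**
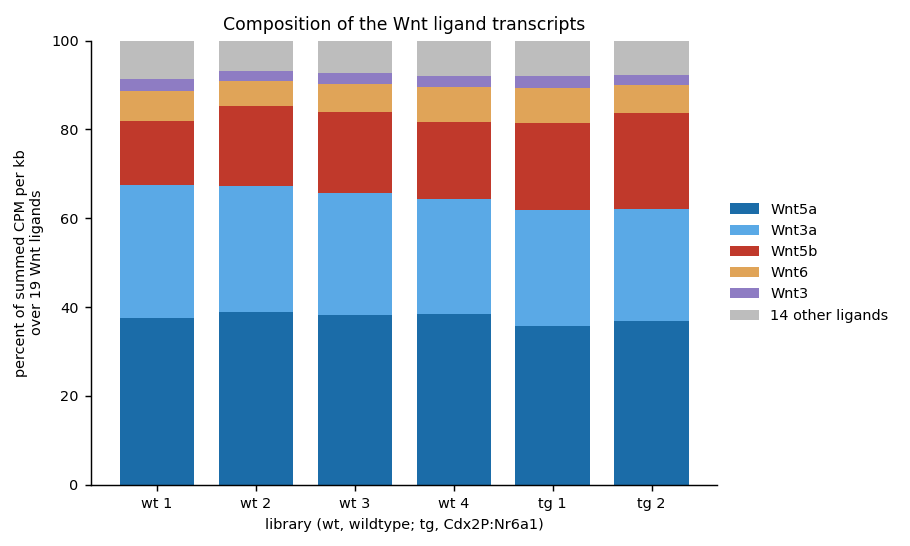
Share of each Wnt ligand in the summed CPM per kilobase of 19 ligands (percent, stacked bars from 0 to 100) in each wildtype (wt) and Cdx2P:Nr6a1 (tg) library. The Wnt5b band is 14.4% to 18.3% deep in wt and 19.7% and 21.6% in tg libraries, and Wnt5a is the deepest band in all 6.

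The other 16 ligands were low, and 11 of them passed the filter. 0 of these 11 were called, with log2 fold changes from -0.33 to 0.20. Wnt6, a ligand of surface ectoderm, was the most abundant of them at 18.6 ± 2.79 CPM per kilobase in wildtype and 20.5 ± 4.60 in Cdx2P:Nr6a1, followed by Wnt3 at 6.95 ± 0.706 and 7.25 ± 1.99. Wnt1, a ligand of the midbrain and dorsal neural tube, had 0 counts in every library, which allows up to 0.0681 CPM in the smallest library at 3 counts, for counting error only.

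Of the feedback inhibitors, Notum showed the clearest difference. Notum (chr11:120653788-120661175, minus strand) encodes a secreted carboxylesterase that removes the lipid from Wnt proteins and so inactivates them. It stood at 24.7, 23.5, 20.3 and 22.0 CPM in wildtype and at 14.2 and 13.2 CPM in Cdx2P:Nr6a1. Every transgenic value was below every wildtype value, and the gap was wider than the whole wildtype range. Notum fell by 39.8%, a log2 fold change of -0.73 ± 0.10 (edgeR, adjusted p = 0.0113). The call held in 14 of those 16 alternatives and was lost without either Cdx2P:Nr6a1 library (edgeR, adjusted p = 0.0667 and 0.0816), where the lone library left was assumed to vary like the others.

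Of the 2408 exon bases of Notum, 918 (38.1%) also lay in exons of Notumos or Myadml2os, annotated on the opposite strand. The counts did not use strand in a way that separates such genes: 0 of 446 genes lying wholly under opposite-strand exons had more than 10 counts in total, which allows a share of up to 0.673%, against 16040 of 42762 genes (37.5%) that share no exon base. Reads on such shared bases thus went to neither gene, the level of Notum per length is understated, and reads of Notumos outside the shared bases cannot be assigned to a strand. Notumos, named after its values were seen, stood at 3.68, 3.37, 3.06 and 2.87 CPM in wildtype and at 2.04 and 2.04 CPM in Cdx2P:Nr6a1, lower in the same libraries. Shared exon bases were 13.7% of Lef1, 4.58% of Wnt5a and 3.80% of Axin2, and 0 in the other 6 genes.

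Nkd1 (chr8:88521354-88594884), which binds Dishevelled and dampens the signal inside the cell, stood at 145.1, 137.4, 146.8 and 145.5 CPM in wildtype and at 115.5 and 133.2 CPM in Cdx2P:Nr6a1. Both transgenic values were below the 4 wildtype values, by little in replicate 2. The log2 fold change of -0.21 ± 0.065 did not pass (edgeR, unadjusted p = 0.00968, adjusted p = 0.198), and the adjusted p ranged from 0.0156 to 0.863 across the 16 alternatives, with 1 call when low genes were not filtered.

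Axin2 (chr11:108920349-108950783), the scaffold of the destruction complex and the most used readout of canonical signalling, stood at 135.4, 192.6, 131.4 and 152.8 CPM in wildtype and at 114.7 and 155.5 CPM in Cdx2P:Nr6a1. The groups overlapped, and the log2 fold change was -0.18 ± 0.16 with a 95% interval from -0.55 to 0.18 (edgeR, adjusted p = 0.838). Dkk1 (chr19:30545863-30549665), a secreted antagonist that binds Lrp5 and Lrp6, stood at 30.6, 97.9, 30.3 and 67.4 CPM in wildtype and at 31.7 and 72.9 CPM in Cdx2P:Nr6a1. The 2 transgenic values fell on either side of the wildtype mean of 56.5 CPM. Its log2 fold change was -0.11 ± 0.49 with an interval from -1.20 to 0.99 (edgeR, adjusted p = 0.974). At this spread, a fall or a rise in Dkk1 within that interval remained compatible with the data. Within wildtype, Dkk1 had a coefficient of variation of 57.6%, higher than 99.7% of genes tested, and Axin2 one of 18.3%, whereas Lef1 at 1.34% was among the steadiest.

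Of the transcription factors, Sp5 fell and Sp8 and Lef1 did not pass the test. Sp5 and Sp8 are zinc-finger proteins that work redundantly below Wnt3a in tailbud progenitors, and Lef1 is the nuclear partner of β-catenin. Sp5 (chr2:70474923-70477729) stood at 88.2, 111.0, 85.7 and 114.9 CPM in wildtype and at 67.3 and 63.6 CPM in Cdx2P:Nr6a1. Every transgenic value was below the lowest wildtype value. Sp5 fell by 34.8%, a log2 fold change of -0.62 ± 0.12 (edgeR, adjusted p = 0.0428). The adjusted p was close to the threshold: 10 of the 16 alternatives called the gene, and the call was lost with robust dispersions, with Y-linked expression as a covariate, and without wildtype replicate 2, wildtype replicate 4 or either Cdx2P:Nr6a1 library, with adjusted p from 0.0548 to 0.249 under these 6.

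Sp8 (chr12:118846329-118852576) stood at 66.1, 89.7, 68.1 and 79.0 CPM in wildtype and at 74.9 and 74.2 CPM in Cdx2P:Nr6a1, in the middle of the wildtype values. Its log2 fold change was -0.03 ± 0.11, with an interval from -0.27 to 0.22 (edgeR, adjusted p = 0.973). Whether Sp5 and Sp8 differed in their response was not tested, and the intervals of their changes, from -0.89 to -0.34 for Sp5, did not meet. Lef1 (chr3:131110471-131224356) stood at 175.1, 172.5, 170.6 and 175.6 CPM in wildtype and at 144.3 and 173.4 CPM in Cdx2P:Nr6a1, so only replicate 1 left the narrow wildtype range. Its log2 fold change was -0.13 ± 0.070, with an interval from -0.29 to 0.03 (edgeR, adjusted p = 0.612).

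The genes closest to each called member were the tested genes with the smallest root mean square difference in log2 CPM, centred on the wildtype mean, over the 6 libraries. For Sp5 they were Gm26793 at 0.114, Glis1 at 0.118 and Cdx1 at 0.128. For Notum they were BC049715 at 0.051, Myom2 at 0.0597 and Lefty2 at 0.0642. Gm26793, Cdx1, Myom2 and Lefty2 were called lower (edgeR, adjusted p = 0.0226, 0.0313, 0.0292 and 0.0208). Glis1 and BC049715 were not called (edgeR, adjusted p = 0.427 and 0.1). Cdx1 is a caudal-type homeobox gene and itself a Wnt target. All were picked for profiles like those of genes called lower, so their direction follows from that choice.

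Libraries differed in Dkk1 and Axin2 within each group, in an order that some other oscillating genes followed or reversed and the rest did not. Wildtype replicates 1 and 3 and Cdx2P:Nr6a1 replicate 1 had the 3 lowest levels of Dkk1 and of Axin2, and also of Phlda1. The same 3 libraries had the 3 highest levels of Lfng, the Notch-pathway glycosyltransferase of the clock, at 241.0, 120.3 and 223.8 CPM, against 44.7 and 47.0 CPM in wildtype replicates 2 and 4 and 66.3 CPM in Cdx2P:Nr6a1 replicate 2. Of 8 tested clock genes of the Notch and Fgf groups, 5 were highest in these 3 libraries, namely Lfng, Hes7, Nrarp, Snai1 and Dusp6. Of the Wnt group, 2 of 8 tested clock genes other than Dkk1, which set the choice of libraries, were lowest there, namely Axin2 and Phlda1. Over all genes tested, 2.87% were lowest and 2.75% highest in these libraries. Wnt3a and Wnt5a were also highest in these libraries, with wildtype coefficients of variation of 9.01% and 2.21%. This order was noticed in the data, and the genes of 1 library share its tissue and its depth, so it is given without a test.

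**Figure D3:**
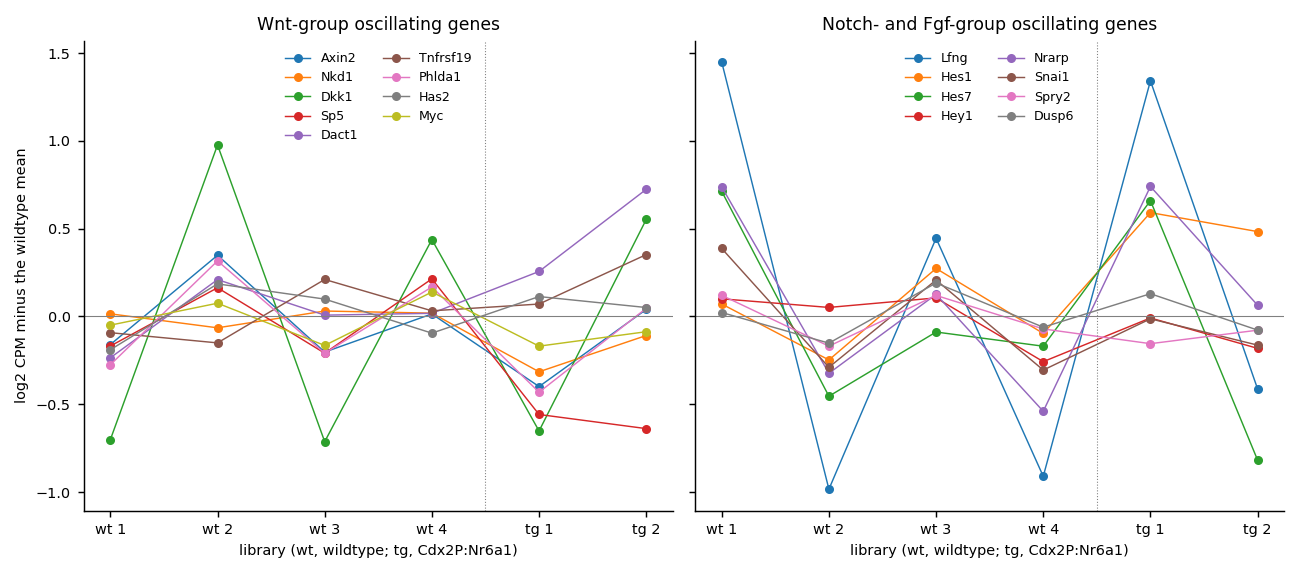
log2 CPM minus the wildtype mean for 9 Wnt-group and 8 Notch- and Fgf-group oscillating genes in each wildtype (wt) and Cdx2P:Nr6a1 (tg) library, with thin lines only to guide the eye, since libraries have no order. Dkk1 is low and Lfng high in wt 1, wt 3 and tg 1, while Sp5 is below 0 in both tg libraries.

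Among wildtype libraries Sp5 shared that order, lower in replicates 1 and 3 (88.2 and 85.7 CPM) than in replicates 2 and 4 (111.0 and 114.9 CPM), whereas Notum did not. In both genes the 2 Cdx2P:Nr6a1 libraries were the lowest of the 6. These 2 libraries stood apart from each other in Dkk1 and Lfng. With log2 CPM of Lfng as a covariate, an alternative chosen after the data were seen, the log2 fold change was -0.55 ± 0.099 for Sp5 (edgeR, adjusted p = 0.0291) and -0.75 ± 0.11 for Notum (edgeR, adjusted p = 0.0122). That of Dkk1 became 0.23 ± 0.19 (edgeR, adjusted p = 0.857), and that of Axin2 -0.10 ± 0.10 (edgeR, adjusted p = 0.887). Lfng is 1 clock gene measured in 6 libraries, and the part of the clock in the levels of Sp5 and Notum was not tested.

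In the rest of the pathway, 97 further genes were in the table and 81 passed the filter. 2 of the 81 were called higher and 4 lower, against 0.785% and 0.809% of all genes tested. Fzd7, a receptor of the Frizzled family, fell from 115.5, 117.1, 116.3 and 122.0 CPM in wildtype to 82.5 and 86.4 CPM in Cdx2P:Nr6a1, a log2 fold change of -0.48 ± 0.050 (edgeR, adjusted p = 0.0031), and it was called under every alternative. None of the other 15 receptors tested was called. Fzd9 at 0.80, Fzd1 at 0.36 and Fzd2 at 0.36 had both transgenic libraries above wildtype (edgeR, adjusted p = 0.103, 0.188 and 0.191), as did 10.1% of all genes tested. Ror1 at -0.49 had both below (edgeR, adjusted p = 0.262), as did 8.48% of all genes tested. Apcdd1, a membrane inhibitor that binds Wnt and Lrp5 and is itself a Wnt target, fell by 0.48 on the log2 scale (edgeR, adjusted p = 0.00995), the only call among 7 tested extracellular inhibitors outside the 10 genes.

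Inside the cell, 0 of 16 core components were called, Ctnnb1, the gene of β-catenin, being at 0.02 ± 0.038 (edgeR, adjusted p = 0.955). Dact1, a Dishevelled-binding protein, was at 0.50 ± 0.14 (edgeR, adjusted p = 0.143). Tcf7l2 was called among 11 nuclear factors and fell by 0.56 on the log2 scale (edgeR, adjusted p = 0.0198), from a level of 1.14 ± 0.0355 CPM per kilobase (SD, n = 4) that was far below Tcf7 at 37.0 ± 0.493, Lef1 at 19.7 ± 0.265 and Tcf7l1 at 8.87 ± 0.778. Tcf7, the most abundant Tcf/Lef transcript, was at -0.10 ± 0.046 (edgeR, adjusted p = 0.521). Neither the 4 tested genes of the R-spondin module nor Porcn and Wls, which equip and carry Wnt proteins for secretion, were called.

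Of 19 tested target genes outside the 10, 2 were called higher and 2 lower, Apcdd1 being 1 of the latter. Over all genes tested, 0.785% were called higher and 0.809% lower. Cdx1 fell by 0.60 on the log2 scale (edgeR, adjusted p = 0.0313), with counts that equalled those of Tcf7l2 in each Cdx2P:Nr6a1 library but not in wildtype. Cyp26a1, which degrades retinoic acid in the tailbud, stood at 208.6, 190.7, 236.7 and 184.9 CPM in wildtype and at 404.1 and 281.4 CPM in Cdx2P:Nr6a1, a log2 fold change of 0.73 ± 0.13 (edgeR, adjusted p = 0.0315). Cdx2 rose by 0.35 ± 0.065 (edgeR, adjusted p = 0.034). Of the 16 alternatives, 15 called Apcdd1, 12 each Tcf7l2 and Cdx1, and 11 each Cyp26a1 and Cdx2. Cyp26a1 was not called with robust dispersions or without wildtype replicate 1, 2 or 4 or Cdx2P:Nr6a1 replicate 1, and Cdx2 not without any 1 wildtype library or Cdx2P:Nr6a1 replicate 1. Tcf7l2 and Cdx1 were not called with the Y-linked covariate or without wildtype replicate 3 or either Cdx2P:Nr6a1 library, and Apcdd1 not without Cdx2P:Nr6a1 replicate 1. The transgene was built with Cdx2 regulatory elements, and whether any transcribed base of it was counted for Cdx2 was not tested. The median log2 fold change over the 19 was -0.10, and that over the 7 target members was -0.18.

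**Figure D4:**
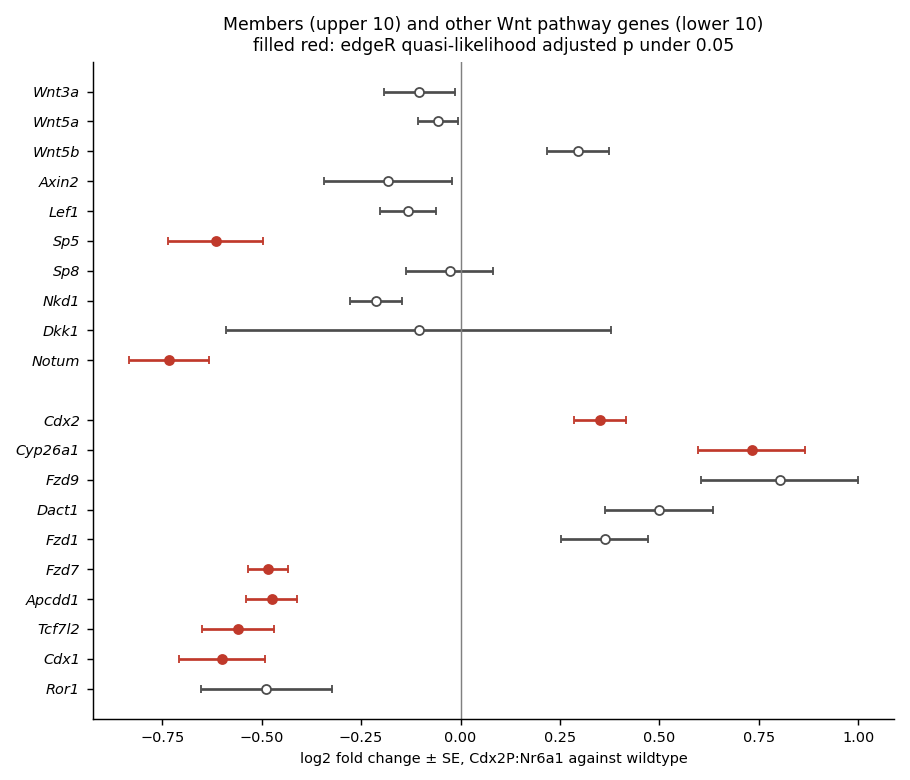
log2 fold change (Cdx2P:Nr6a1 against wildtype, x axis) with its SE as a bar, for the 10 genes and for 10 other Wnt pathway genes named by rule, with filled red points for an edgeR adjusted p under 0.05. Sp5 and Notum are the called members, at -0.62 and -0.73, and the bar of Dkk1 is the widest.

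Markers of other cell types also differed between the groups. The summed level of 8 neural tube genes was 32.2 to 39.7 CPM in wildtype and 45.4 to 57.9 CPM in Cdx2P:Nr6a1, with Sox1 and Sox3 called higher among the 3 that passed the filter and 1 of the 8 at 0 throughout. That of 8 surface ectoderm genes was 251 to 320 and 330 to 371 CPM, with Krt18 called higher. That of 7 somite genes was 101 to 111 and 82.9 to 94.6 CPM, with Aldh1a2 called lower at -1.25 ± 0.16 (edgeR, adjusted p = 0.00693). Aldh1a2 had a mean of 17.6 CPM in wildtype and 7.42 CPM in Cdx2P:Nr6a1, and the paper takes it as a mesodermal progenitor marker in its cell cultures. Of the 4 somite genes tested, Aldh1a2 and Meox1 lay below every wildtype library. Tcf15 and Pax3, the largest term of the sum, overlapped (edgeR, adjusted p = 0.454 and 0.889). Presomitic mesoderm genes gave 1299 to 1600 and 1232 to 1440 CPM, notochord genes 60.0 to 81.0 and 71.1 to 87.8 CPM, and hindgut genes 339 to 443 and 421 to 513 CPM. Of 7 presomitic mesoderm genes tested, 4 were higher and 3 lower, with 0 called. Tbx6 at -0.26 and Dll3 at -0.14 lay below every wildtype library (edgeR, adjusted p = 0.107 and 0.19), as did 8.48% of all genes tested. Lateral and ventral mesoderm, erythroid, macrophage and endothelial lists overlapped between the groups. The part of these differences in the levels of Sp5, Notum and Wnt5b was not tested.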

How the data were processed

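RNA from 6 single E10.5 tailbuds was sequenced after polyA selection with a stranded kit. Per the submitters' processing notes, reads were aligned with STAR to mm10. The authors deposited raw counts per gene, without normalization, and these counts were used as deposited. The counting program and its strand setting are not given in the sources used here. A second deposited table holds the authors' own comparison of the same libraries (fold changes and p-values) and was not used. The labels give E10.5, and a heading of the source data gives E9.5. E10.5 was used.

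The 10 genes, the pathway and marker lists and the tests were chosen with earlier results of these data known. Genes named in the text were the 10, the called pathway genes, filled up to 5 in each direction with those of largest change that were not called, the Wnt ligands and Tcf/Lef genes for levels per length, and the 3 closest profiles of each called gene. Fzd2, Ctnnb1, Notumos and the clock and marker genes were named in addition, after their values were seen. 1 list symbol, Tiki1, was not found in the table, and 0 columns of other samples were present.

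Fits used edgeR 4.0.16, with limma 3.58.1 and DESeq2 1.42.0 for alternatives, under R 4.3.3. Shares, promoters and plots were made with numpy 2.4.6, pandas 2.3.3, matplotlib 3.10.9 and scipy 1.17.1 under Python 3.11.15. A gene was tested if 2 or more libraries had over 10 counts and over 2 CPM for it. TMM factors were used in the fit, and no covariate was used. The SE of a log2 fold change was taken from its F statistic (the absolute change over the root of F), and 95% intervals used the degrees of freedom of the fit. CPM in the text was computed from column totals, and errors are SD. The biological coefficient of variation was 9.40%. Scripts were tested on simulated data. Each library is a separate embryo, so p-values measure the spread between embryos. 17 alternatives were planned and 1 was added.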

Additional observations from a re-analysis of the deposited data

How the results depend on the processing

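Sp5 and Notum kept their direction under all alternatives run, including the added Lfng covariate, with log2 fold changes from -0.69 to -0.55 and from -0.79 to -0.69 over 16 alternatives, the block left aside. The number of the 10 genes called was 1 with robust dispersions and 1 with the Y-linked covariate, in both cases Notum, and 4 with no filter on low counts. Leaving out 1 library at a time gave 0 to 2 members, 2 to 5 of the other pathway genes and 61 to 175 of all genes, with 0 members and 61 genes without either Cdx2P:Nr6a1 library. Of the other pathway genes, 10 were called by the likelihood ratio test, 10 by the exact test of edgeR, 13 by DESeq2, 21 with no filter and 11 with the Lfng covariate, against 6 in the main test. Of all genes, 401 were called by the likelihood ratio test, 391 by the exact test of edgeR, 477 by DESeq2 and 876 with no filter, against 203. The cause of these differences was not tested.

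Direction changed only in members that were not called: Dkk1 was at 0.0052 with limma voom and 0.23 with the Lfng covariate, and Sp8 at 0.0036 with the Y-linked covariate and 0.035 with the Lfng covariate. With 1 library left out, log2 fold changes ran from -0.85 to 0.37 for Dkk1, -0.088 to 0.063 for Sp8, -0.43 to 0.024 for Axin2, -0.28 to 0.00030 for Lef1, -0.22 to 0.0033 for Wnt3a and -0.12 to 0.0047 for Wnt5a. The shares of Wnt3a, Wnt5a and Wnt5b kept their direction when computed without exon length or over ligands past the filter.

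Replicate numbers 1 and 2 occur in both groups, and the labels give no pairing of these embryos. Their deviations from the group means correlated at 0.205 for number 1 and -0.151 for number 2. The deviations of 2 Cdx2P:Nr6a1 libraries from their own mean mirror each other, so these correlations cannot show whether embryos were paired. With the replicate number as a block, 4 members (Wnt5b, Axin2, Sp5 and Notum), 16 other pathway genes and 442 of all genes were called.

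With 2 Cdx2P:Nr6a1 embryos, a single value cannot give an exact p under 0.0667, and the variation of Dkk1 between embryos limits what can be said of it.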
